A study of Mus musculus with 2 samples.

Results

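miR-143, miR-145a, miR-199a, miR-199b and miR-214 are microRNAs known as products of mesenchymal cells, and both arms of each were followed in whole mouse liver. The members were taken by their miRBase names (mmu-miR-143-3p, mmu-miR-143-5p, mmu-miR-145a-5p, mmu-miR-145a-3p, mmu-miR-199a-3p, mmu-miR-199a-5p, mmu-miR-199b-3p, mmu-miR-199b-5p, mmu-miR-214-3p and mmu-miR-214-5p; the prefix is left out below), and all 10 were listed both in the table of experiment 1 (10 of 484 microRNAs) and in that of experiment 2 (10 of 1915). Each experiment compared 1 library of ethanol-fed liver with 1 library of pair-fed liver, so that no spread between animals can be given and no difference was tested. The labels hold 1 sample per diet, to which the columns of both tables were assigned by name, and do not say whether the 2 tables come from the same or from different animals. The paper calls its sequencing result representative of 2 independent experiments, without tying these to the 2 tables. The mice were female C57BL/6 wild-type animals, 8 to 10 weeks old. All had the control Lieber-DeCarli liquid diet for 5 days. The ethanol-fed mice then had that diet with 5% (v/v) ethanol for 10 days, and a gavage of 6 g/kg ethanol on day 16. Pair-fed mice were given an isocaloric diet without ethanol and a gavage of isocaloric dextrin-maltose, and livers were taken 9 h after the gavage. How many animals stand behind a library is not given in the sources used here.

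A microRNA is cut from a hairpin whose 5′ side gives the 5p arm and whose 3′ side gives the 3p arm, and in most hairpins 1 arm is loaded into Argonaute and the other is lost. Bases 2 to 8 of the mature microRNA, the seed, pair with target mRNAs. miR-143 and miR-145 mark vascular smooth muscle and hold it in its contractile state. miR-199a and miR-214 are known from mesenchyme, fibroblasts and activated hepatic stellate cells, the cells that lay down collagen in injured liver. As whole liver was sequenced, fewer cells of a type and less RNA per cell cannot be told apart.

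*Mir199a-2* (chr1:162217814-162217923) and *Mir214* (chr1:162223368-162223477) lie 5444 bases apart on the plus strand, in exons of the antisense RNA *Dnm3os* and within an intron of *Dnm3* on the other strand. *Mir199a-1* (chr9:21496495-21496564, minus strand) and *Mir199b* (chr2:32318460-32318569, plus strand) are likewise antisense to introns, of *Dnm2* and *Dnm1*. All coordinates are of GRCm38, with gene positions from RefSeq and overlaps from GENCODE vM21.

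Mature sequences from RefSeq (GRCm38.p6) were matched for 5 of the 10 members and are shown because 2 of them cannot be told apart. They run 5′ to 3′, with the seed in capitals.
miR-199a-3p: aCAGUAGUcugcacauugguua
miR-199b-3p: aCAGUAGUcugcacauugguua
miR-199a-5p: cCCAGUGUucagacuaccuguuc
miR-214-3p: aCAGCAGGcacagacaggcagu
miR-214-5p: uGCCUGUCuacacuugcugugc
miR-199a-3p lies at chr1:162217883-162217904 and chr9:21496498-21496519, miR-199b-3p at chr2:32318524-32318545, miR-199a-5p at chr1:162217844-162217866 and chr9:21496537-21496559, miR-214-3p at chr1:162223438-162223459 and miR-214-5p at chr1:162223397-162223418. miR-199a-3p and miR-199b-3p are identical over all 22 bases. miR-199a-3p and miR-214-3p share 5 of the 7 seed positions but not the seed. Among the 1679 mature names with a sequence, 1 non-member has the seed of a shown member. It is miR-761, which has the seed of miR-214-3p, was not listed in experiment 1 and was listed at 0 in both libraries of experiment 2. miR-143-3p, miR-143-5p, miR-145a-5p, miR-145a-3p and miR-199b-5p are given by name.

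The hairpins of the neighbours *Mir199a-2* and *Mir214* are shown with both mature arms in capitals, since the balance of the arms is compared below.
Mir199a-2: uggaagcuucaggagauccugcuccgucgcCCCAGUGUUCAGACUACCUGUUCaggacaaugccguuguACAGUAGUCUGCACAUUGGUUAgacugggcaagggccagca
Mir214: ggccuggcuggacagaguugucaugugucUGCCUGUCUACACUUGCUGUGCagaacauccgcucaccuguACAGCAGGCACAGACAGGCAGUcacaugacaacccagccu

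The reads on microRNAs numbered 4170601 (pair-fed) and 4311802 (ethanol-fed) in experiment 1, whose table holds counts. Experiment 2 holds reads per 1000000 reads on microRNAs (RPM), and its libraries were estimated at 10812946 and 10820862 reads from the step between low values. Intervals below are 95% intervals, cover counting error only and rest on estimated reads in experiment 2. The hepatocyte microRNA miR-122-5p was at 2971 (pair-fed) and 2210 RPM (ethanol-fed) in experiment 1, and at 182938 and 156660 RPM in experiment 2. Pairs of values below follow the same order, pair-fed first. The tables were scaled separately and differ in makeup.

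miR-143-3p was the most abundant member in all 4 libraries. In experiment 1 it had 401530 and 412790 reads, or 9.63% and 9.57% of the reads on microRNAs. In experiment 2 it was at 15722 and 20681 RPM, or 1.57% and 2.07%. By rank among all microRNAs it was at 3 and 2 in experiment 1, and at 14 and 11 in experiment 2. With miR-199-3p counted once, miR-143-3p made up 99.6% and 99.5% of the RPM of the members together in experiment 1, against 78.8% and 82.3% in experiment 2.

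The identical miR-199a-3p and miR-199b-3p came next. Their values were the same in 3 libraries, 885 reads each in pair-fed liver of experiment 1 and 2708 and 2842 RPM each in experiment 2. In the ethanol-fed library of experiment 1 they had 1181 and 1180 reads. One other pair of names with identical sequence, let-7a-1-3p and let-7c-2-3p, also had equal values in both tables. The value of miR-199-3p can therefore not be split between its 3 genes, and the 2 names are 1 measurement.

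The 5p arms differ in name and value. miR-199a-5p had 134 and 213 reads in experiment 1 and 722 and 715 RPM in experiment 2. miR-199b-5p had 2 reads in each library of experiment 1, and 14.1 and 10.3 RPM in experiment 2. Of the reads on both 5p names, miR-199b-5p thus took 1.91% (Wilson interval 1.63% to 2.23%) of the pair-fed and 1.41% (1.18% to 1.70%) of the ethanol-fed library of experiment 2. In experiment 1 the shares were 1.47% (0.404% to 5.20%) and 0.930% (0.255% to 3.33%).

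miR-145a, the partner of miR-143, was far less abundant. *Mir143* and *Mir145a* are neighbours on the minus strand of chromosome 18 (GRCm38), with 1301 bases between them, inside the RefSeq span of the long noncoding RNA *Carmn*. miR-145a-5p, the arm usually described as the functional one, had 119 and 256 reads in experiment 1 and 523 and 522 RPM in experiment 2. miR-145a-3p had 643 and 515 reads in experiment 1 and 184 and 261 RPM in experiment 2. Both arms of miR-143 together exceeded both arms of miR-145a 527-fold and 535-fold in experiment 1, but 22.3-fold and 26.5-fold in experiment 2. Of the arms taken one by one, miR-143-3p exceeded miR-145a-5p 3374-fold in the pair-fed and 1612-fold in the ethanol-fed library of experiment 1, and 30.1-fold and 39.6-fold in experiment 2. Both ratios were higher in experiment 1 than in experiment 2. Between the diets, both were higher in the ethanol-fed library of experiment 2, while that to the 5p arm was lower in the ethanol-fed library of experiment 1.

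miR-214 was at the low end. miR-214-3p had 3 and 20 reads in experiment 1 and 24.6 and 23.1 RPM in experiment 2, and miR-214-5p had 6 and 5 reads and 10.1 and 12.7 RPM. miR-199a-3p exceeded its neighbour miR-214-3p 110-fold and 123-fold in experiment 2. In experiment 1 the ratios were 295 and 59.1, and the first rests on 3 reads. miR-143-5p, the lesser arm of miR-143, had 2 reads and 1 read in experiment 1 and 35.7 and 48.1 RPM in experiment 2.

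**Figure D1:**
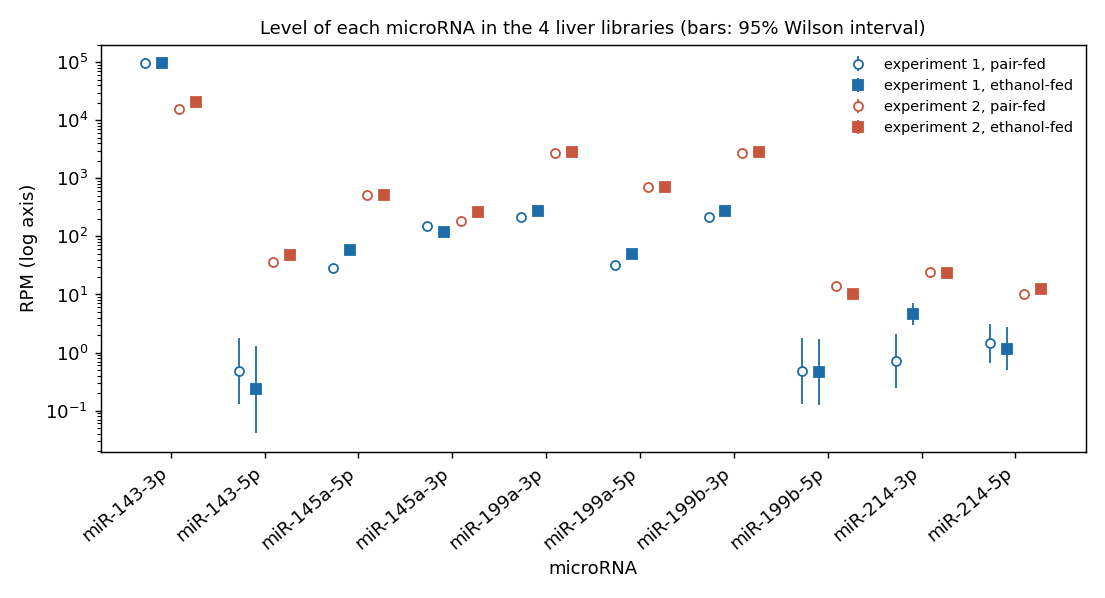
Level of each member in RPM on a log axis, with 1 point per library and its 95% Wilson interval. miR-143-3p is highest in all 4 libraries and lies higher in experiment 1 than in experiment 2, whereas every other member lies lower in experiment 1.

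The order of the members differed between the tables in its middle part. In experiment 1, the pair-fed library had miR-145a-3p (154 RPM) above miR-199a-5p (32.1 RPM, 27.1 to 38.0) and miR-145a-5p (28.5 RPM, 23.8 to 34.1), and the intervals of the last 2 overlapped. At the low end of that library, miR-214-5p, miR-214-3p, miR-143-5p and miR-199b-5p overlapped from neighbour to neighbour. In the ethanol-fed library of experiment 1, miR-145a-5p (52.5 to 67.1 RPM) and miR-199a-5p (43.2 to 56.5 RPM) overlapped, and miR-214-3p (4.64 RPM) lay above miR-214-5p (1.16 RPM) without overlap. In both libraries of experiment 2 the order was miR-199a-5p, miR-145a-5p and miR-145a-3p, with no overlap. The only neighbours that overlapped in experiment 2 were miR-199b-5p and miR-214-5p, in both diets, and the 2 names of miR-199-3p.

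Levels in the 2 separately scaled tables were set side by side as a description. miR-143-3p was 6.12-fold higher in experiment 1 than in experiment 2 in the pair-fed libraries and 4.63-fold higher in the ethanol-fed ones. All the other members were lower in experiment 1 in both diets. In the pair-fed libraries miR-145a-3p was 1.19-fold higher in experiment 2, miR-199-3p 12.8-fold, miR-145a-5p 18.3-fold and miR-199a-5p 22.5-fold. miR-143-5p, with 2 reads in experiment 1, was 74.4-fold higher in experiment 2, so that the arms of 1 hairpin differed in opposite directions. Over the 269 microRNAs above 0 in all 4 libraries and with at least 10 reads in each table, the median log2 ratio of experiment 1 over experiment 2 was -1.29 in the pair-fed libraries, and 81 of the 269 were higher in experiment 1. Of the 269, 19 had a higher ratio than miR-143-3p, and 237 a higher one than miR-199a-5p. The part of the animals, library preparation or counting in these differences was not tested.

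**Figure D2:**
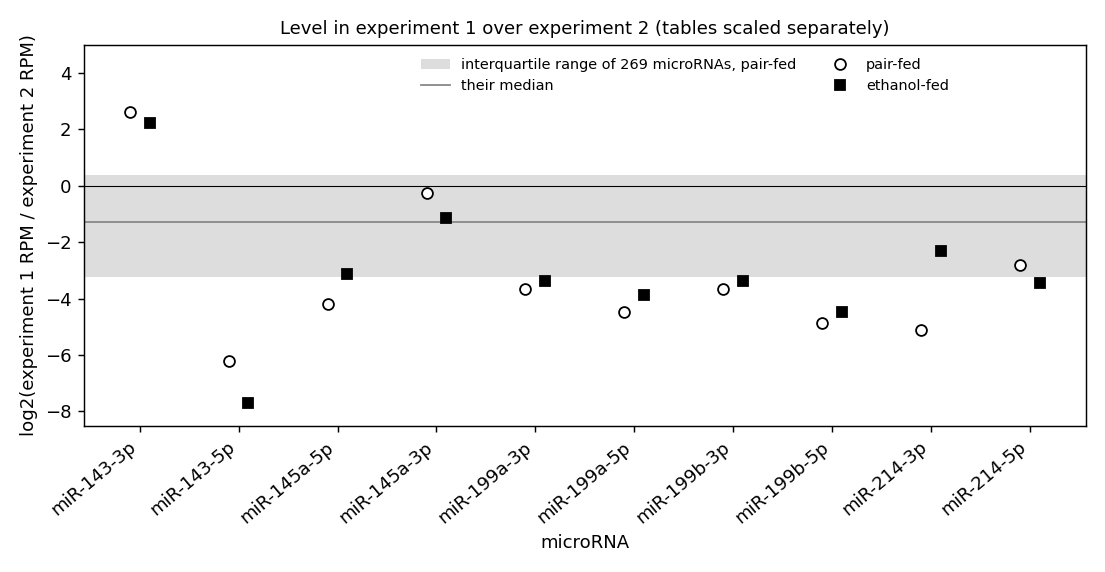
Log2 ratio of the RPM in experiment 1 over that in experiment 2 for each member, pair-fed (open circles) and ethanol-fed (filled squares), with the median and interquartile range of 269 microRNAs in the pair-fed libraries. miR-143-3p lies above the band (6.12-fold and 4.63-fold higher in experiment 1), and miR-143-5p lies far below it.

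The balance of the 2 arms was next compared, as it does not depend on how a library was scaled. The 3p arm of miR-145a took 84.4% (81.6% to 86.8%) of the reads on both arms in the pair-fed and 66.8% (63.4% to 70.0%) in the ethanol-fed library of experiment 1. In experiment 2 it took 26.0% (25.0% to 27.0%) and 33.3% (32.3% to 34.3%). The stronger arm was therefore the 3p arm in both libraries of experiment 1 and the 5p arm in both libraries of experiment 2. Such a switch in both diets was found for 11 of the 102 names with both arms listed and at least 10 reads on them in each library (10.8%). They were miR-1247, miR-126a, miR-145a, miR-1948, miR-221, miR-301a, miR-3068, miR-338, miR-361, miR-423 and miR-664. miR-145a was the only member among the 11.

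The share also differed between the 2 libraries of each experiment, and in opposite directions. From pair-fed to ethanol-fed, the 3p share of miR-145a was lower in experiment 1 and higher in experiment 2, and the intervals of the 2 diets did not overlap in either. In experiment 1 the log2 ratio between the diets was 1.42 higher for the 5p than for the 3p arm. A distance of at least 1 was seen in 27 of 74 names there (36.5%), and 18 of the 74 reached the size of that of miR-145a, both counted in either direction. In experiment 2 the distance was -0.51. There 14 of 107 names (13.1%) reached 1 in either direction, and 34 of the 107 reached the size of that of miR-145a.

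For miR-199a the 3p arm took 86.8% (84.6% to 88.8%) and 84.7% (82.7% to 86.5%) in experiment 1, and 79.0% (78.5% to 79.4%) and 79.9% (79.5% to 80.3%) in experiment 2, a value that counts the reads of all 3 genes on the 3p side. For miR-214 it took 70.9% (66.1% to 75.3%) and 64.6% (59.7% to 69.2%) in experiment 2. In experiment 1 the 9 and 25 reads on the arms of miR-214 gave 33.3% (12.1% to 64.6%) and 80.0% (60.9% to 91.1%), whose intervals overlap. The 3p arm of miR-143 exceeded the 5p arm 440-fold and 430-fold in experiment 2, and more widely in experiment 1.

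**Figure D3:**
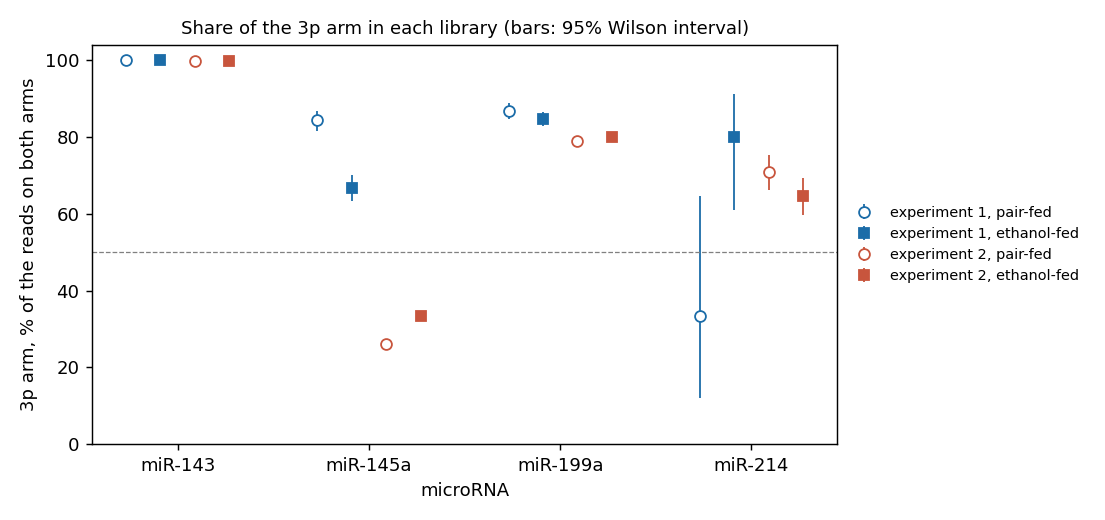
Share of the 3p arm among the reads on both arms, in percent, for each library with its 95% Wilson interval. The 4 values of miR-145a fall on both sides of 50%, with experiment 1 above and experiment 2 below. Those of miR-214 also do, with 33.3% (6 reads on 5p and 3 on 3p) in the pair-fed library of experiment 1 and the others above 50%. miR-143 and miR-199a stay above 50% in every library.

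The comparison of ethanol-fed with pair-fed liver asked whether these microRNAs move with the diet. Log2 ratios were computed on RPM after adding 1 read to each library, which understates the change of members with few reads. A ratio of at least 2-fold was called. In experiment 1, 8 of the 10 members had at least 10 reads in both libraries together. Of these, 2 were called higher, where 12.6% of the 302 microRNAs tested were, and 0 lower, where 12.9% were. In experiment 2 all 10 passed the minimum, and 0 were called in either direction, where 10.7% of 469 were called higher and 15.1% lower. The median log2 ratio of the members was 0.37 in experiment 1 and 0.07 in experiment 2, against -0.01 and 0.00 over all microRNAs tested. Both medians fall on the value of miR-199-3p, which enters here under 2 names. With these summed to 1, the medians were again 0.37 and 0.07.

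miR-145a-5p and miR-214-3p were the 2 called higher. miR-145a-5p was at 28.5 RPM (23.8 to 34.1) and 59.4 RPM (52.5 to 67.1) in experiment 1. This was 2.08-fold (1.67 to 2.61) and a log2 ratio of 1.05, close to the limit for a call. In experiment 2 the fold was 0.999 (0.962 to 1.04), so that the higher level was not seen there. miR-214-3p, with 3 and 20 reads, was 6.45-fold higher in experiment 1, with an interval of 1.91 to 33.9 that shows how little 3 reads fix. With 266 and 250 estimated reads in experiment 2, its fold was 0.939 (0.787 to 1.12).

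miR-143-3p, the most deeply counted member, had a fold of 0.994 (0.990 to 0.999) in experiment 1. Its log2 ratio of -0.01 turned to 0.03 with median-of-ratios scaling and to 0.04 with unscaled reads, so no direction is given for it there. In experiment 2 it was 1.32-fold higher in the ethanol-fed library (1.31 to 1.32). miR-143-5p was 1.35-fold higher there (1.18 to 1.54), and the interval of the rarer arm holds the fold of the common one.

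miR-145a-3p was at 0.775-fold (0.689 to 0.871) in the ethanol-fed library of experiment 1 and at 1.42-fold (1.34 to 1.50) in experiment 2. The direction thus differed between the tables by more than the counting error. Neither fold reached 2. The 5p arm of the same microRNA did not follow it in either table.

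In experiment 1 miR-199a-3p was 1.29-fold higher (1.18 to 1.41) and miR-199a-5p 1.54-fold (1.23 to 1.92), and their intervals overlap. In experiment 2 the folds were 1.05 (1.03 to 1.07) for miR-199a-3p and 0.991 (0.960 to 1.02) for miR-199a-5p. miR-199b-5p, with 152 and 111 estimated reads, was at 0.730 (0.566 to 0.938) in experiment 2, the lowest fold of the members there, and its 4 reads in experiment 1 give a fold of 0.967 with an interval of 0.0701 to 13.3. miR-214-5p was at 0.806 (0.195 to 3.17) and 1.26 (0.969 to 1.63), and both intervals hold 1.

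**Figure D4:**
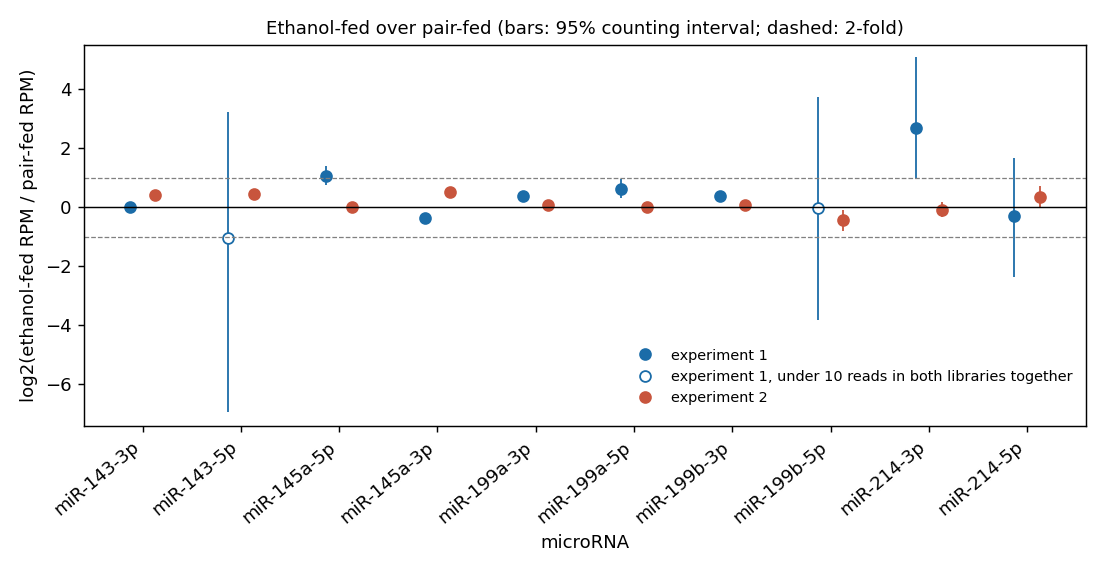
Log2 of the RPM in ethanol-fed liver divided by that in pair-fed liver, for each member without an added read, with the 95% counting interval and dashed lines at 2-fold. miR-145a-5p and miR-214-3p pass 2-fold upward in experiment 1, while all members of experiment 2 lie between the dashed lines.

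Other microRNAs that stromal cells or fibrosis are known for were taken as a list of 20. Of these, 18 passed the minimum in experiment 1, with a median log2 ratio of 0.10. Of the 18, 1 was called higher and 0 lower, against 12.6% and 12.9% of all microRNAs tested. The 1 called was miR-455-3p, with 2 and 9 reads. In experiment 2 all 20 passed, with a median of -0.08, and 0 were called, against 10.7% called higher and 15.1% lower of all tested. miR-21a-5p, which rises in many injured tissues, was at 14828 and 16038 RPM in experiment 1 and at 57661 and 53062 RPM in experiment 2. miR-29a-3p, which targets collagen mRNAs, was at 336 and 491 RPM and at 3241 and 3362 RPM. Some other abundant microRNAs of the list were lower in the ethanol-fed library of experiment 1. There miR-100-5p was at 0.607-fold (0.585 to 0.631), miR-125b-5p at 0.762-fold, miR-99a-5p at 0.786-fold and miR-10b-5p at 0.870-fold. By contrast, miR-130a-3p, at 729 and 844 RPM, was 1.16-fold higher (1.10 to 1.21). In experiment 2 miR-100-5p was at 1.25-fold, miR-125b-5p at 0.917-fold, miR-99a-5p at 1.10-fold, miR-10b-5p at 0.913-fold and miR-130a-3p at 1.16-fold. Ratios above 1 were seen for 11 of the 18 in experiment 1 and for 8 of the 20 in experiment 2. Over all microRNAs tested, the median log2 ratios were -0.01 and 0.00.

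Lists of other cell types were followed in the same libraries. Of all microRNAs tested, 12.6% were called higher and 12.9% lower in experiment 1, and 10.7% and 15.1% in experiment 2. The summed RPM of 4 red cell microRNAs was 2.93-fold higher in the ethanol-fed library of experiment 1 and 0.631-fold in experiment 2. Of the 4, 3 were called higher in experiment 1 and 0 were called in experiment 2. Most of the sum in experiment 1 was miR-486a-5p, at 11512 and 33721 RPM. The 4 endothelial microRNAs were at 1.31-fold and 1.17-fold in sum, with 0 called in either table. In experiment 1, 2 of these 4 were above 1, both arms of miR-126a, whereas miR-222-3p was at 0.619-fold (0.538 to 0.711). The 6 white cell microRNAs were at 0.830-fold and 0.535-fold, with 0 called of the 5 and 6 tested. The 7 hepatocyte microRNAs were at 0.980-fold and 0.941-fold with 0 called, and 3 and 4 of them had ratios above 1. In experiment 1 most of their sum was miR-192-5p, at 388161 and 373090 RPM, while miR-122-5p was at 0.744-fold (0.724 to 0.764). In experiment 2 miR-122-5p was at 0.856-fold and miR-802-5p at 1.63-fold (1.52 to 1.76). The 5 epithelial microRNAs were at 1.01-fold and 1.71-fold, with 0 called of the 4 and 5 tested. Striated muscle microRNAs were sparse in experiment 1, where miR-133a-3p had 2 and 18 reads, the same low range as miR-214-3p. In experiment 2, miR-1a-3p was at 69.9 and 111 RPM. The part of these other cell types in the values of the members was not tested.

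The microRNAs with the level pattern most like a member were taken from 107 non-members with at least 100 reads in each of the 4 libraries, by the Euclidean distance of log2 RPM centred on each microRNA's mean over the 4 libraries. For miR-143-3p these were miR-22-3p (distance 0.26), miR-151-3p (0.41) and miR-191-5p (0.58). miR-22-3p was at 26328 and 30385 RPM in experiment 1 and at 5513 and 6642 RPM in experiment 2. For miR-199a-3p they were miR-221-3p (0.34), miR-30b-5p (0.39) and miR-27a-3p (0.39), and for miR-145a-5p let-7g-5p (0.69), miR-29a-3p (0.74) and miR-26a-5p (0.82). The 4 libraries come from 2 separately scaled tables, so the distance takes in the difference between the tables as well as that between the diets. A small distance is thus not a like ratio between the diets. miR-191-5p was lower in the ethanol-fed library of both experiments (9387 and 6666 RPM, 1475 and 1252 RPM), whereas miR-143-3p was not lower in experiment 2. miR-214-3p had too few reads to be placed.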

How the data were processed

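The authors deposited 2 tables of mature microRNAs from small RNA sequencing of livers of the short-term feeding model (HiSeq 2500, RNA of the small size fraction cut from a gel). Experiment 1 holds the deposited counts of reads, without normalization. Experiment 2 holds RPM that the authors scaled to reads on microRNAs, and lists nothing between 0 and 0.92 RPM. The labels name mm8 as a genome build without its role. The aligner, counter, annotation and filters are not given in the sources used here. The second table also holds the authors' fold changes and p-values, which were not used, and repeats its RPM columns. Columns were assigned by name, and 0 were left over.

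Reads of experiment 2 were estimated from the step of 1 read, 0.0925 RPM (pair-fed) and 0.0924 RPM (ethanol-fed), of which 98.0% of 296 and 97.3% of 291 values under 60 RPM were whole multiples within 0.1 step. A microRNA was tested with at least 10 reads in both libraries together, and its log2 ratio had 1 read added per library. Fold intervals are exact conditional binomial, shares and levels have Wilson intervals, and a count of 0 would allow 0.719 and 0.696 RPM (pair-fed and ethanol-fed) in experiment 1 (3 reads). PCR copies were not told apart. Since each table has 1 library per diet, there is no p-value, and every value compares libraries. The members, lists, fold limit and naming rule (all members, and 3 most similar non-members for each of miR-143-3p, miR-145a-5p, miR-199a-3p and miR-214-3p) were chosen with earlier results of these data known. Functions were tested on simulated data. The tools were matplotlib 3.10.9, numpy 2.4.6 and scipy 1.17.1, with pandas 2.3.3 under Python 3.11.15. Alternatives were other scalings, pseudocounts, minimums, readings of 0, and miR-199-3p summed.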

Additional observations from a re-analysis of the deposited data

Results flagged for a closer look

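miR-143-3p and miR-145a-3p had log2 ratios between the diets with opposite signs in the 2 experiments, with counting intervals on opposite sides of no change. For miR-145a-3p the values were -0.37 in experiment 1 and 0.51 in experiment 2. For miR-143-3p they were -0.0081 and 0.40, and the first changes sign with the scaling. With 1 library per diet in each experiment, the difference between the experiments was not tested.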

How the results depend on the processing

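The counts of members at least 2-fold higher or lower in experiment 2 stayed at 0 under all alternatives run. The median log2 ratio there stayed between the median lower and the median upper interval bound of the members, which is not an interval of the median itself. In experiment 1 the count of members called higher fell from 2 to 1 with a minimum of 100 reads, which leaves out miR-214-3p, and the count called lower stayed at 0. The median of the members in experiment 1 went from 0.37 to 0.18 with no minimum, where miR-143-5p and miR-199b-5p with 3 and 4 reads entered. Under the other alternatives it stayed between the median bounds taken in the same way for experiment 1. Of 140 values of single members under the alternatives, 136 stayed within their counting interval and 4, all of miR-143-3p, did not. Many of the 140 could not change. Another minimum or reading of 0 leaves a member's own ratio as it was, and summing miR-199-3p leaves those of the other members. The share that stayed is therefore not a measure of robustness. The sign changed in 4 values, all of them near 0. These were miR-143-3p in experiment 1 (0.0254 with median-of-ratios scaling and 0.0399 with unscaled reads) and miR-145a-5p in experiment 2 (0.0055 with miR-143-3p and 0.0023 with miR-148a-3p, the top microRNA, left out).

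No paired analysis was run, because the labels hold 1 sample per diet and do not assign the 2 tables to separate pairs of animals. Leaving out a replicate was not possible for the same reason. Unscaled reads do not apply to the RPM of experiment 2, and values listed at 0 were replaced in experiment 2 only. Few reads limit miR-143-5p, miR-199b-5p and miR-214 in experiment 1, where their RPM was also lower than in experiment 2. At no depth can 1 library per diet separate diet from animal.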
